A study of Mus musculus with 2 samples.

Results

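The proximal zinc finger cluster of mouse chromosome 7 was compared between WT and H3.3 G34R embryonic stem (ES) cells by RNA-seq. Members were all quantitated genes whose start lies between 5.0 and 13.5 Mb on chromosome 7 of mm9, except Zscan4 and Zim genes, Peg3 and Usp29. This gave 117 of 26127 genes, of which 20 are zinc finger genes by name and 97 are neighbours. Another 9 genes of the interval were left out by that rule. The interval had been picked as a run of lower genes in these same libraries, so the ratios of its members are given as a description and without a test.

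Both lines are 129S1/SvImJ ES cells grown with serum and leukaemia inhibitory factor for fewer than 20 passages. WT cells were unmodified (H3f3a+/+, H3f3b+/+), and G34R cells carried a single G34R copy of H3f3a beside a WT copy and intact H3f3b (H3f3a+/G34R, H3f3b+/+). The mutant coding sequence was a minigene expressed from the endogenous H3f3a promoter after Cre excision. G34R cells were derived as clones, and which clone was sequenced is not given in the sources used here. Each line is represented by 1 library, so line, clone and culture cannot be told apart from genotype, and no value has a replicate. Expression was given as RPKM, reads per kilobase of transcript scaled to library size. RPKM summed to 156468 in WT and 151548 in G34R cells, so ratios between the samples depend on the scaling, which is varied below.

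C2H2 zinc finger proteins bind DNA through arrays of short zinc-coordinating modules, and their genes have multiplied by tandem duplication into clusters. Many carry a KRAB domain, which recruits Trim28 and through it Setdb1, the methyltransferase that places H3K9me3. Clusters of these genes often carry H3K9me3 themselves, and H3K9me3 is removed by KDM4 demethylases, the enzymes whose role the study examined in G34R cells.

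Promoter sequences are shown for 2 zinc finger members that were more than 2-fold lower in G34R cells (Zfp28 and Zfp773), for the neighbour Aurkc, which was lower by a wider margin, and for Zfp787 and Zfp580, the zinc finger members with the highest ratios. Each is the 250 bases before the RefSeq transcription start, from the GRCm38.p6 promoter table, placed on mm9 by exact match. Capitals mark CpG dinucleotides, the sites of DNA methylation.
Zfp28, chr7:6335778-6336027, plus strand: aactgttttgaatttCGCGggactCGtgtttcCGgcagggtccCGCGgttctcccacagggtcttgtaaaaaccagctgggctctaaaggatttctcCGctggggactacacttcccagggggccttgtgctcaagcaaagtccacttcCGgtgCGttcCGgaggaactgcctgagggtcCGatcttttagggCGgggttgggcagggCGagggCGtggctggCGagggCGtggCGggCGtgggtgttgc
Zfp773, chr7:7089467-7089716, minus strand: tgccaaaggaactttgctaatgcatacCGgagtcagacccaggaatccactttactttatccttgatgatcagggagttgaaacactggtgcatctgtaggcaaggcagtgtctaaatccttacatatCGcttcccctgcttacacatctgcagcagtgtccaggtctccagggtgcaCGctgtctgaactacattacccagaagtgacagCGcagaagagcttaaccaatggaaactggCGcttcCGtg
Aurkc, chr7:6947846-6948095, plus strand: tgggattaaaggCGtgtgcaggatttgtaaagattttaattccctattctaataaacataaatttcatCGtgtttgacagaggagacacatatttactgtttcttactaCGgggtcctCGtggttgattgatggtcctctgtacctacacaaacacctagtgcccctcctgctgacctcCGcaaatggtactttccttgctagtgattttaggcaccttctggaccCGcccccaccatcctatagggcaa
Zfp787, chr7:6107568-6107817, minus strand: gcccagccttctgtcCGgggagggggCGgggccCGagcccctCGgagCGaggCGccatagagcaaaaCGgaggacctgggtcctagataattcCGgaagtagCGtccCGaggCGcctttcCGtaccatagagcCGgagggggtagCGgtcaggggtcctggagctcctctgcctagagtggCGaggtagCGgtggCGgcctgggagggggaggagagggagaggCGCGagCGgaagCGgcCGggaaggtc
Zfp580, chr7:5002884-5003133, plus strand: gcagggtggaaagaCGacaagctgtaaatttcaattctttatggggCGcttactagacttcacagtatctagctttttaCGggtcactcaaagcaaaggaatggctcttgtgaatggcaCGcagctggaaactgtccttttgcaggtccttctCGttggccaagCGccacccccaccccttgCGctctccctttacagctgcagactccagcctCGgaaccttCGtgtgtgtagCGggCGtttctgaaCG
The stretches hold 18 CpG in Zfp28, 6 in Zfp773, 6 in Aurkc, 22 in Zfp787 and 12 in Zfp580.

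The zinc finger genes were weakly expressed in both lines. All 20 reached 0.25 RPKM in at least 1 library, and their median was 1.37 RPKM in WT against 1.23 RPKM in G34R cells. Zfp110, which encodes a factor that binds the p75 neurotrophin receptor, stood above the rest at 11.40 RPKM in WT against 9.40 RPKM in G34R cells. It was followed by Zfp444 with 3.60 and 4.35 RPKM. In bulk RNA, fewer cells of a type and less RNA per cell cannot be told apart. The lowest levels in WT cells were 0.48 RPKM for Zfp128 and 0.52 RPKM for Zfp551. In G34R cells the lowest were instead Zfp773 and Zscan5b, at 0.11 and 0.17 RPKM. Read numbers were estimated from RPKM, exon length and depth, and ranged from 24 to 4129 for these genes. Intervals given below are 95% Clopper-Pearson intervals on those estimated reads and cover counting error only, not the spread between cultures.

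**Figure D1:**
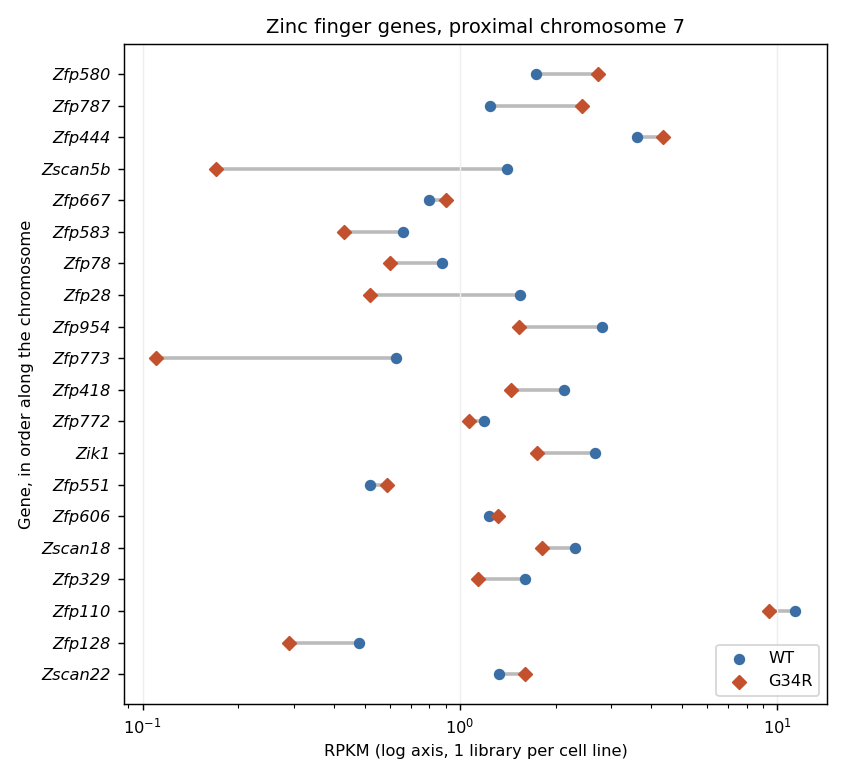
RPKM of the 20 zinc finger genes in WT (circles) and G34R cells (diamonds) on a log axis, in order along the chromosome, with 1 library per cell line and no error bars. Zscan5b, Zfp28 and Zfp773 show the longest lines, towards lower values in G34R cells, while Zfp787 and Zfp580 are higher.

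More than 2-fold lower in G34R cells were 3 of the 20 zinc finger genes (15.0%), and none was more than 2-fold higher. Over all 13366 genes with at least 0.25 RPKM in 1 library, 9.64% were more than 2-fold lower and 5.79% more than 2-fold higher. Weak genes varied more, and of the 5776 genes with no more than 3 RPKM in the higher library 16.3% were lower and 9.25% higher. All zinc finger members but Zfp444 and Zfp110 fall in that range, so the share of 15.0% lay near the background of genes of like abundance. Zscan5b and Zfp773 reached 0.25 RPKM in WT cells alone. With 1 RPKM added to both values, 1 of the 20 was past 2-fold lower, Zscan5b at -1.04. As the interval was chosen on these ratios, nothing further is read from the count.

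Zscan5b (ENSMUSG00000058028, plus strand, 6173880 to 6191025) encodes a protein with a SCAN domain, a dimerisation module, and zinc fingers. It had 1.41 RPKM in WT against 0.17 RPKM in G34R cells, or about 247 and 25 reads. The log2 (G34R/WT RPKM) was -3.05, with a counting interval of -3.68 to -2.43, an 8.29-fold lower level in G34R cells.

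Zfp773 (ENSMUSG00000063535, minus strand, 7083389 to 7089466) had 0.63 RPKM in WT against 0.11 RPKM in G34R cells, from about 168 and 24 reads. Its log2 ratio was -2.52 (counting interval -3.21 to -1.90), or -1.80 with 0.1 RPKM added to both values. Zfp28 (ENSMUSG00000062861, plus strand, 6336080 to 6347755), a KRAB zinc finger gene, had 1.55 RPKM in WT against 0.52 RPKM in G34R cells. The log2 ratio was -1.58 (-1.92 to -1.24), or 2.98-fold lower. For Zscan5b, Zfp773 and Zfp28 the counting interval lay wholly below a 2-fold difference.

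These 3 genes do not adjoin. Zfp667, Zfp583 and Zfp78 lie between Zscan5b and Zfp28 and were within 2-fold. Zfp667, first described as a gene induced in heart muscle after ischaemia, had 0.80 RPKM in WT against 0.90 RPKM in G34R cells. Zfp583 had 0.66 and 0.43 RPKM, and Zfp78 had 0.88 and 0.60 RPKM. On either side of Zfp773 the same held, since Zfp954 had 2.81 RPKM in WT against 1.53 RPKM in G34R cells and Zfp418 had 2.12 and 1.45 RPKM. Zfp954 had the lowest log2 ratio of the members within 2-fold after the 3 above, at -0.88 (-1.11 to -0.65).

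Higher in G34R cells, within 2-fold, were 7 of the 20 genes. Zfp787 had 1.24 RPKM in WT against 2.43 RPKM in G34R cells (log2 ratio 0.97, counting interval 0.72 to 1.23). The study showed Zfp787 as a KDM4-bound gene with gains in G34R cells of H3K9me3 and of H3K36me3, another mark that KDM4 removes. How these gains relate to its RNA was not tested. Zfp580 had 1.73 and 2.73 RPKM (log2 ratio 0.66, 0.36 to 0.95). Zfp580, Zfp787 and Zfp444 are the first 3 zinc finger members of the interval, and all 3 were higher in G34R cells. Zfp444, which encodes a SCAN zinc finger protein, had a log2 ratio of 0.27 (0.15 to 0.40).

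Zik1, whose product binds the RNA-binding protein hnRNP K, had 2.66 RPKM in WT against 1.75 RPKM in G34R cells (log2 ratio -0.60, -0.76 to -0.45). Zfp772 had 1.19 and 1.07 RPKM, and its interval of -0.42 to 0.12 included no difference. The intervals of Zfp667, Zfp551 and Zfp606 also included 0. In all, the counting interval lay below 0 for 12 zinc finger genes and above 0 for 4, and included 0 for the other 4. Such intervals were not computed for all genes, so these counts have no background and are not read as an excess. With many reads even a small difference excludes 0, as for the neighbour U2af2 (log2 ratio -0.10, -0.14 to -0.06). The log2 ratio itself was negative for 13 of 20 genes (65.0%), against 55.0% of all genes with at least 0.25 RPKM. As the interval was picked for lower genes in these libraries, that difference is not read as a result.

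The zinc finger genes fall into 2 blocks. From 5.0 to 7.2 Mb lie 12 of them, and from 11.0 to 13.5 Mb the other 8, with no zinc finger member in between. All 3 genes past 2-fold lay in the first block, where the median log2 ratio was -0.55 and the range -3.05 to 0.97. In the second block the median was -0.31 and the range was narrower, from -0.73 for Zfp128 to 0.27 for Zscan22. Zfp128 had 0.48 RPKM in WT against 0.29 RPKM in G34R cells, Zscan22 had 1.33 and 1.60 RPKM, and Zfp551 had 0.52 and 0.59 RPKM. These 3 differ in direction although Zfp128 and Zscan22 are adjacent. Zfp329 there had 1.60 RPKM in WT against 1.14 RPKM in G34R cells, Zscan18 had 2.30 and 1.81 RPKM, and Zfp606 had 1.23 and 1.32 RPKM. In steps of 1 Mb the median was 0.66 at 5 to 6 Mb (1 gene), -0.55 at 6 to 7 Mb (7 genes), -0.71 at 7 to 8 Mb (4 genes), -0.60 at 11 to 12 Mb (1 gene) and -0.28 from 13 Mb on (7 genes). The stretch between the blocks held 33 neighbours, of which 30 were under 0.25 RPKM in both lines.

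**Figure D2:**
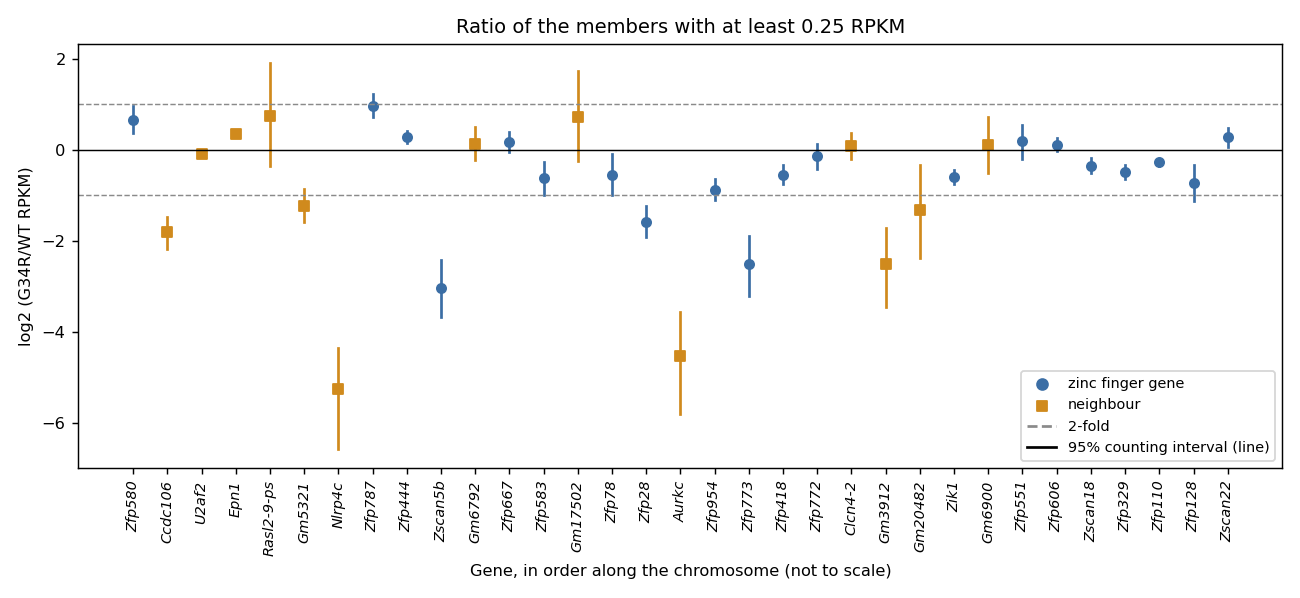
The log2 (G34R/WT RPKM) of the 33 members with at least 0.25 RPKM in 1 library, in order along the chromosome and not to scale, with 95% counting intervals as lines and 2-fold differences as dashes. Members far below 0 alternate with members near 0, and from Zik1 onwards no member is more than 2-fold lower.

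At the lower border of the interval, the members just inside were Gm15510 (0.06 and 0.10 RPKM in WT and G34R cells) and Zfp580, and the genes just outside were 4632433K11Rik (0.08 and 0.05 RPKM) and Zfp784 (0.15 and 0.08 RPKM). At the upper border Zfp128 and Zscan22 lay just inside. Outside it, 2310014L17Rik had 0.59 RPKM in WT against 0.12 RPKM in G34R cells.

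Among the 97 neighbours most genes were silent. All 59 vomeronasal receptor genes, which encode pheromone receptors of sensory neurons, were at or below 0.01 RPKM, and 58 were listed at 0 in both libraries. The 8 olfactory receptor genes reached at most 0.07 RPKM, and 3 of 4 Nlrp genes were listed at 0. In all, 13 neighbours passed 0.25 RPKM, and 6 of these (46.2%) were more than 2-fold lower in G34R cells and none more than 2-fold higher, beside 9.64% lower of all genes and 16.3% of weak genes. Without the members that share 50-base stretches with other protein-coding genes, 2 neighbours were lower, Ccdc106 and Aurkc. That step also takes out Rasl2-9-ps and Gm6900, which were within 2-fold, so these 2 are not out of 13. Of the 6, Nlrp4c, Aurkc, Gm3912 and Gm20482 passed only through their level in WT cells, and so had to be lower in G34R cells, and the share supports nothing about neighbours as a class.

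Nlrp4c, a member of a gene family expressed mainly in oocytes and early embryos, had 1.16 RPKM in WT against 0.03 RPKM in G34R cells. This corresponds to about 398 and 8 reads and a log2 ratio of -5.27 (counting interval -6.57 to -4.36), which was -3.28 with 0.1 RPKM added to both values and -1.07 with 1 RPKM added. Aurkc, which encodes the meiotic Aurora kinase, had 2.78 RPKM in WT against 0.12 RPKM in G34R cells, with a log2 ratio of -4.53 (-5.80 to -3.57), or -3.71 and -1.75 with these additions. Both differences were wider than that of any zinc finger member. Of the sequence of Nlrp4c, 9.30% of 50-base stretches also occur in other protein-coding genes, mostly Nlrp4e, whereas Aurkc shares none.

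Ccdc106 had 1.58 RPKM in WT against 0.45 RPKM in G34R cells (log2 ratio -1.81, -2.18 to -1.47). The lincRNA gene Gm15510 lies over Ccdc106 and Zfp580 on the opposite strand, at no more than 0.10 RPKM. Gm5321, an intronless gene of 447 bases that shares 4.52% of its 50-base stretches with other genes, had 6.30 and 2.69 RPKM. The non-coding genes Gm3912 (0.46 and 0.08 RPKM, a log2 ratio of -2.52 that was -1.64 with 0.1 RPKM added) and Gm20482 (0.25 and 0.10 RPKM) complete the 6, and they share 3.85% and 4.12% of their 50-base stretches with Zfp772. Zfp772 itself had a log2 ratio of -0.15.

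The most abundant neighbours were within 2-fold. U2af2, which encodes the splicing factor that recognises the polypyrimidine tract, had 51.09 RPKM in WT against 47.65 RPKM in G34R cells. Epn1, an adaptor of clathrin-mediated endocytosis, had 14.80 and 18.83 RPKM (log2 ratio 0.35, 0.28 to 0.41). They follow Ccdc106 in order along the chromosome. Clcn4-2, a chloride and proton exchanger gene just past Zfp772, had 0.54 and 0.57 RPKM. The other neighbours within 2-fold, Rasl2-9-ps, Gm6792, Gm17502 and Gm6900, had log2 ratios from 0.10 to 0.74, and those of Rasl2-9-ps (0.74, -0.36 to 1.90) and Gm17502 (0.72, -0.25 to 1.72) rest on few reads, with counting intervals that included 0.

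**Figure D3:**
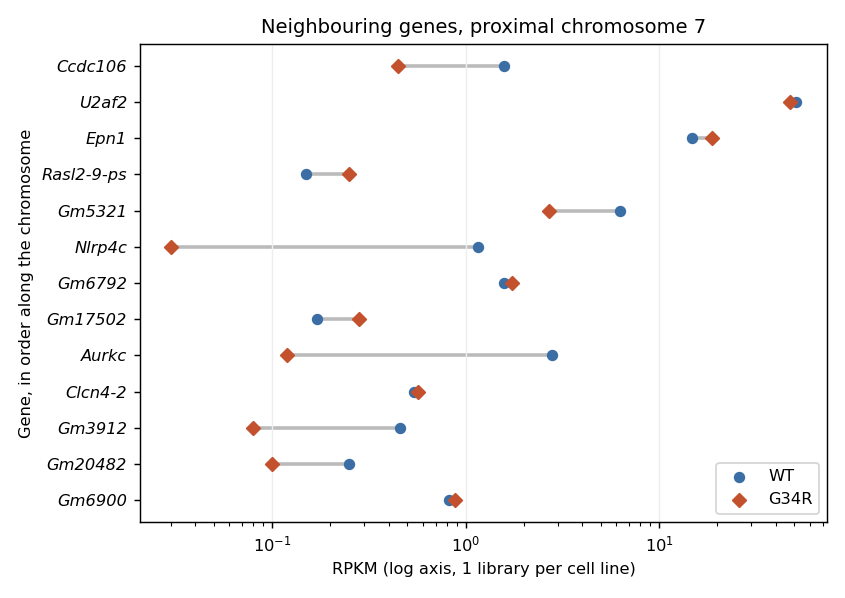
RPKM of the 13 neighbours with at least 0.25 RPKM in 1 library, in WT (circles) and G34R cells (diamonds) on a log axis and in order along the chromosome, with 1 library per cell line. Nlrp4c and Aurkc are furthest apart, and U2af2 and Clcn4-2 nearly coincide.

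The genes left out of the interval behaved differently among themselves. Peg3, an imprinted zinc finger gene expressed from the paternal allele, had 5.17 RPKM in WT against 24.92 RPKM in G34R cells, while its imprinted neighbour Usp29 had 1.13 and 0.14 RPKM. Zim1 stayed under 0.25 RPKM in both. All 6 quantitated Zscan4 genes, markers of the 2-cell-like state of ES cells, were more than 2-fold lower. This stands beside 9.64% of all genes and 16.3% of weak genes. Their summed level was 8.11 RPKM in WT against 0.33 RPKM in G34R cells. All 6 reached 0.25 RPKM in WT cells alone, and so had to be lower in G34R cells. Between 47.25% and 93.27% of their 50-base stretches are shared with other genes, mostly with each other.

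The zinc finger members were then set beside zinc finger genes of the rest of the genome. Their median log2 ratio was -0.42, with quartiles of -0.65 and 0.17. For 374 zinc finger genes elsewhere with at least 0.25 RPKM the median was -0.11, with quartiles of -0.46 and 0.24. Over all 13366 genes it was -0.07, and over those with no more than 3 RPKM it was -0.10. More than 2-fold lower were 8.02% of the zinc finger genes elsewhere, and 2.67% were higher. On the rest of chromosome 7, 72 other zinc finger genes had a median of -0.24. Of these, 7 (9.7%) were more than 2-fold lower and none higher, beside 9.64% lower and 5.79% higher of all genes. None of these differences could be tested with 1 library per line. The interval was picked as a run of lower genes in these same libraries, so a lower median of its members is built in. The shift is therefore not read as a result.

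**Figure D4:**
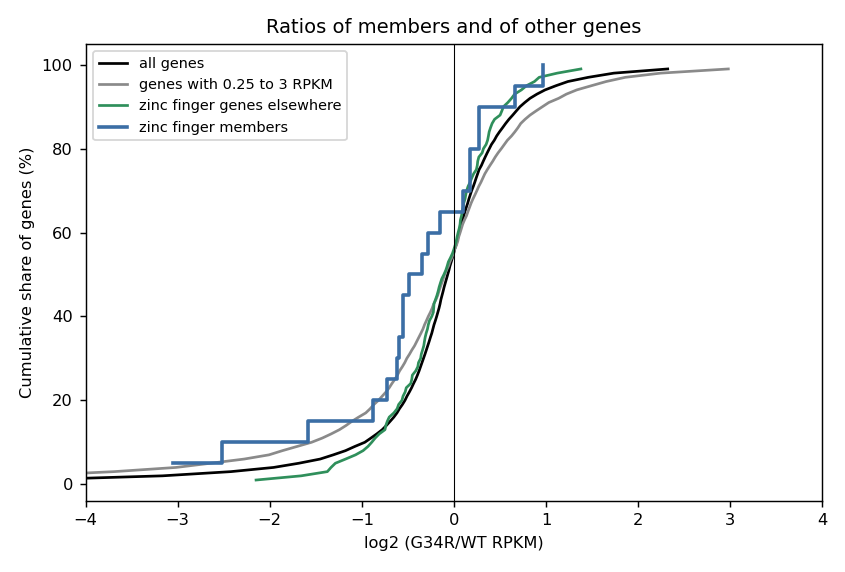
Cumulative share of genes (%) by log2 (G34R/WT RPKM) for the 20 zinc finger members (steps), zinc finger genes elsewhere, all genes, and genes with 0.25 to 3 RPKM in the higher library. At a log2 ratio of -1 the members' curve stands at 15.0%, near the 16.3% of weak genes, and it lies left of the other curves around its median of -0.42. The interval was picked for lower genes in these same libraries, so this shift is built in.

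The proteins of these genes vary widely in build. C2H2 modules were counted in the longest GENCODE coding sequence as paired cysteines with 2 to 4 residues between them, 12 residues, and paired histidines with 3 to 5 residues between them. The 20 members held from 1 to 14 matches with a median of 8, beside a median of 9 for the 441 coding genes with a zinc finger name. Of the 3 genes past 2-fold, Zfp28 had 14 matches, Zfp773 had 8 and Zscan5b had 5. Zfp787 had 7, Zfp580 had 3 and Zscan18 had 1, so members with low and high ratios overlapped in this feature. They lie on both strands, 11 on plus and 9 on minus.

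Near-identical copies were not common among the zinc finger members. Only 4 of the 20 shared any 50-base stretch, the read length, with another protein-coding gene, and the share was highest for Zfp954 at 1.80%, all of it with Zfp772. Zscan5b, Zfp773 and Zfp28 shared none.

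Promoter windows of 300 bases around the RefSeq start (250 before, 50 after) were found for 23 of the 33 expressed members, including 19 zinc finger genes. Zscan5b has no entry. The palindrome CG occurs in 94.2% of all 27025 promoters in the table, so its number was counted rather than its presence. Among members more than 2-fold lower the windows held 7 in Nlrp4c, 6 in Aurkc, 7 in Zfp773, 7 in Ccdc106 and 20 in Zfp28. The 18 members within 2-fold held a median of 15.5, from 2 in Zfp418 to 27 in Zfp787. Zfp418 and Zfp583, with 2 and 3, had log2 ratios of only -0.55 and -0.62, and Zfp28 had many CpG yet was 2.98-fold lower, so windows poor in CpG stood on both sides of the 2-fold line. Over the genome the windows of 767 genes more than 2-fold lower held a median of 12 CpG and those of 7801 genes within 2-fold held 22. The 475 genes more than 2-fold higher also held fewer, with a median of 17. Windows with 7 or fewer CpG made up 33.2% for genes more than 2-fold lower, 20.6% for those higher and 9.6% for those within 2-fold. The share was 12.2% for all genes with at least 0.25 RPKM and 51.0% for all 27025 promoters in the table. These sets were not matched for abundance, so low CpG is not read as a trait of lowered genes. For Zfp78 and Zscan18 the first RefSeq start lies 8053 and 27980 bases upstream of the quantitated gene, so their windows may not serve the transcripts counted.

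**Figure D5:**
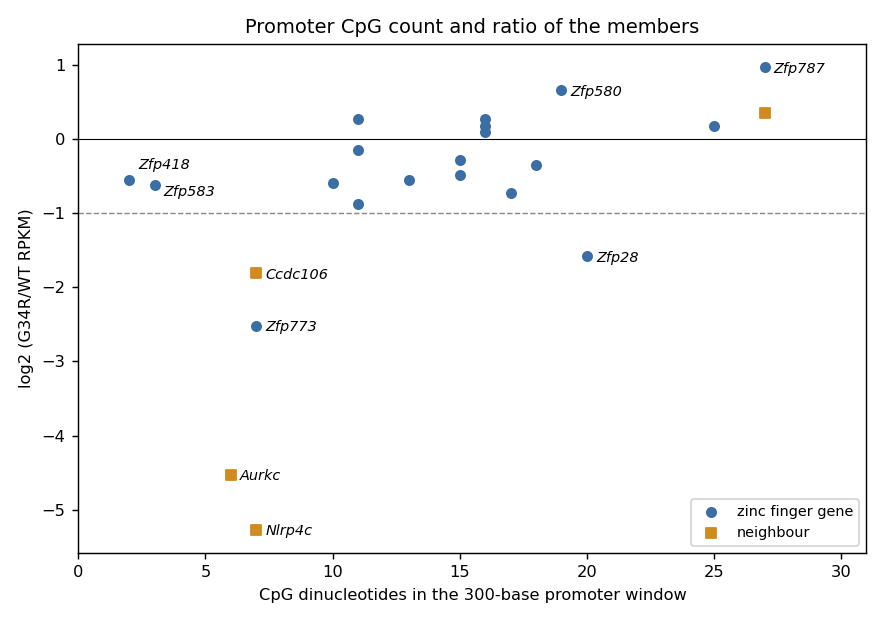
Number of CpG dinucleotides in the 300-base promoter window and log2 (G34R/WT RPKM) for the 23 expressed members with a RefSeq entry (19 zinc finger genes as circles, 4 neighbours as squares). Of the 5 members below the dashed 2-fold line 4 have 6 or 7 CpG, 3 of them neighbours, and Zfp28 has 20. Over the genome 33.2% of genes more than 2-fold lower and 20.6% of those more than 2-fold higher have 7 or fewer.

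Genes that act with KRAB zinc finger proteins and H3K9me3 were examined as a list of 26, of which 25 reached 0.25 RPKM. None was more than 2-fold lower in G34R cells and 2 were more than 2-fold higher, with a median log2 ratio of 0.01. Over all genes with at least 0.25 RPKM these shares were 9.64% and 5.79%, so 2 of 25 higher is not read as a result. Trim28, the corepressor of KRAB proteins, had 326.77 RPKM in WT against 222.49 RPKM in G34R cells, and Setdb1 had 15.06 and 15.25 RPKM. Zfp57, the KRAB protein that protects imprints, had 35.88 and 46.08 RPKM. The 2 higher genes were Suv39h1, an H3K9 methyltransferase (1.57 and 3.36 RPKM), and Dnmt1, the maintenance DNA methyltransferase (8.14 and 44.43 RPKM). Kdm4a had 8.92 RPKM in WT against 9.53 RPKM in G34R cells, Kdm4b had 6.54 and 4.57 RPKM, and Kdm4c had 14.37 and 12.37 RPKM.

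Both libraries carried ES cell markers, with Pou5f1 at 194.34 RPKM in WT against 189.46 RPKM in G34R cells, although Zfp42 had 180.30 and 16.40 RPKM and Nanog 127.07 and 52.24 RPKM. Of 8 ES cell markers 2 were more than 2-fold lower, beside 9.64% of all genes with at least 0.25 RPKM. Summed primitive endoderm markers were 1.40 RPKM in WT against 3.34 RPKM in G34R cells. Of the 4 that reached 0.25 RPKM, 3 were more than 2-fold higher, beside 5.79% of all genes and 9.25% of weak genes. Sox17, at 0.18 and 0.56 RPKM, reached that level in G34R cells alone and so had to be higher. Foxa2, the fifth marker, went the other way, at 0.13 and 0.07 RPKM. None of the 5 exceeded 1.18 RPKM. Trophoblast markers summed to 0.84 and 2.32 RPKM, of which Eomes, more than 2-fold higher, made up 0.43 and 1.88 RPKM. Only 2 of these 5 markers reached 0.25 RPKM, and Krt7 alone went the other way, at 0.23 and 0.07 RPKM. Fibroblast markers summed to 1.48 and 0.94 RPKM, with Postn and Dcn at 0 in both. Neural markers summed to 2.17 and 21.65 RPKM, of which Olig2 made up 0.03 and 17.71 RPKM. The 5 markers of the 2-cell-like state that were found, all of them Zscan4 genes of the interval, summed to 6.86 and 0.28 RPKM. They were lower alongside Zscan5b, Nlrp4c and Aurkc. All of these genes reached 0.25 RPKM in WT cells alone, and so had to be lower in G34R cells. The part of the 2-cell-like markers in the members' values was not tested. H3f3a, the targeted gene, had 8.17 and 4.89 RPKM, which does not separate the alleles.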

How the data were processed

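WT and G34R ES cells gave 1 stranded total RNA library each (500 ng of RNA, 12 PCR cycles), sequenced to 50 bases from a single end. Alignment was to mm9 with STAR (2.4.2a, per the submitters' processing notes), and the authors deposited RPKM for each gene, made in Seqmonk by strand with isoforms merged and length corrected. Primary alignments were counted, so a read that matches near-identical genes equally well is given to 1 of them. Library depth was inferred from 679 short single-exon genes (under 800 bp), whose low RPKM values fall on whole reads. All 76 values in WT and 68 in G34R cells (under 6 reads) did so within 0.005 RPKM, at depths of 88.0 and 72.3 M reads. These depths were picked by how well the values fell on whole reads, so the match is no separate check on them. At these depths 1 read on 1 kb corresponds to 0.0114 and 0.0138 RPKM. The estimator was tested on simulated data.

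Ratios are log2 (G34R/WT RPKM) after RPKM below 0.01 was raised to 0.01. Counts and medians used genes with at least 0.25 RPKM in 1 library. With 1 library per line no test was possible, and counting intervals (95%) rest on reads estimated from exon lengths of GENCODE M1 (mm9), which matched 26114 of 26127 genes. Zinc finger genes were those named Zfp, Zscan, Zik, Zbtb, Zkscan, Znf or Fiz1. Named in the text were every zinc finger member with at least 0.25 RPKM in 1 library, neighbours past 2-fold or with at least 10 RPKM, border genes, Peg3 and Usp29, and 7 pathway genes. Suv39h1, Dnmt1, Clcn4-2, the cell type markers and the other neighbours named were added after their values were seen. So were the range of 0.25 to 3 RPKM, the division at 7.2 and 11.0 Mb and the promoters printed. The cut at 7 CpG was not planned either. The members and lists were chosen with earlier results of these data known. Alternatives were other pseudocounts, filters, folds, scalings and definitions. Promoters came from RefSeq (GRCm38.p6). Python 3.11.15, NumPy 2.4.6, pandas 2.3.3, SciPy 1.17.1, Biopython 1.88 and matplotlib 3.10.9 were used. ChIP-seq was not analysed here, and 1 gene just outside the interval is not reported here.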

Additional observations from a re-analysis of the deposited data

How the results depend on the processing

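Scaling G34R values to the same sum or to a median ratio of 1 shifted all log2 ratios by 0.05 and 0.04, and took Zfp787 just past 2-fold, to 1.02, so that 1 zinc finger member was higher. Adding 1 RPKM left 1 zinc finger member lower (median -0.22), 2 neighbours lower, and 12 lower and 1 higher of the zinc finger genes elsewhere, because it shrinks the ratios of weak genes. With at least 1 RPKM the medians were -0.31 for zinc finger members and -1.23 for neighbours, and 6 zinc finger genes elsewhere were higher. With no filter 16 of the latter were higher. At 1.5-fold, 7 zinc finger members were lower and 2 higher, 2 neighbours were higher, and 72 zinc finger genes elsewhere were lower and 34 higher. At 3-fold these last were 10 and 4. Alternatives chosen after seeing the data were adding 0.01 RPKM, a definition by at least 2 C2H2 matches, which moved Zscan18 to the neighbours (median -0.22), and leaving out members that share 50-base stretches. The last left 2 neighbours lower, Ccdc106 and Aurkc, with a median of 0.08, reversed in sign from -0.10. Of the 33 expressed members, 3 log2 ratios moved with 0.1 RPKM added (Nlrp4c, Zfp773 and Gm3912) and 14 with 1 RPKM added. The definition by RefSeq protein was not run. No paired analysis was possible because each line has 1 library, and for the same reason no replicate could be left out.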
